A study of Mus musculus with 3 samples.

Results

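Cells with the highest level of periostin (Postn) in fracture callus were searched for those that also expressed a small set of other genes, Pdzrn4, Plekhg4, Fam167a, Kctd12 and Megf6. A cell counted as a member when at least 30 of every 10000 of its unique molecular identifiers (UMIs, each standing for a captured RNA molecule) came from Postn and when UMIs of at least 3 of the 5 genes were seen in it. The search was made in cells with 500 to 5000 genes detected, at most 10% mitochondrial UMIs, at most 5% hemoglobin UMIs and no UMI of Ptprc, which encodes the leukocyte antigen CD45. Members numbered 883, with 393 at day 10 and 490 at day 14 after fracture, out of 2392 high-Postn cells, 16267 cells within these limits in both libraries and 16714 in the whole series.

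The study fractured femurs of C57BL/6 mice under isoflurane and set a steel pin in the marrow space, with buprenorphine for pain. No further treatment of the profiled mice was named. Cells of the callus were profiled on 3 days, of which day 10 and day 14 are described here. Callus cleaned of marrow was digested with type I collagenase (3 mg/mL), and live cells without CD45, CD31 or TER119 at the surface were sorted, a gate that removes leukocytes, endothelial cells and erythroid cells. Each day was a single droplet library, so cells of a day are not replicates, day and library cannot be told apart, and no test between days or between sets of cells was made. The day 7 library stood apart and went against this gate, since 6570 of its 7017 cells within the gene, mitochondrial and hemoglobin limits, or 93.6%, had a UMI of Ptprc, and it was left out of all comparisons. At day 10, 6593 cells passed those limits before the Ptprc limit and 6587 after it, and at day 14, 9853 and 9680. The labels give neither the age of the mice nor the number pooled in a library.

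Periostin is a secreted protein of the extracellular matrix that is abundant in the periosteum, the membrane on the outside of bone, and in healing callus. Periosteal progenitors in a callus can form bone directly or pass through cartilage, and a matrix rich in collagen is laid down along both routes. Pdzrn4 encodes a RING and PDZ domain protein of the LNX ubiquitin ligase family, Plekhg4 a guanine nucleotide exchange factor, Kctd12 an auxiliary subunit of GABA-B receptors and Megf6 a protein with many EGF-like repeats.

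At day 10, the library held 8801 deposited cells, of which 6587 passed the limits and 992, or 15.1% (95% exact Clopper-Pearson interval 14.2 to 15.9), were high-Postn cells. At day 14, 9680 of 12984 cells passed and 1400, or 14.5% (13.8 to 15.2), were high-Postn cells. Members made up 39.6% (36.6 to 42.7) of the high-Postn cells at day 10 and 35% (32.5 to 37.6) at day 14. These intervals, and all that follow, cover counting error only. Members had a median of 16605 UMIs at day 10 and 17878 at day 14, against 15797 and 13338 in the other high-Postn cells. The day 14 members were therefore deeper than their comparison cells, and detection of 3 genes is easier in a deeper cell. Mitochondrial UMIs were a median of 3.04% and 2.79% in members and 2.97% and 2.91% in the others. The libraries of day 10 and day 14 shared 35 cell barcodes, with no barcode shared between members of the 2 days. A barcode of another library was carried by 3 members of day 10 and 6 of day 14.

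The members were selected on Postn and on detection of the 5 genes, so their levels of these 6 genes are given as a description. Levels are UMIs of a gene per 1000000 UMIs summed over a set of cells (CPM). Postn stood at 6523 CPM in members and 5615 in the other high-Postn cells at day 10. The day 14 values were 5692 and 5149.8 CPM. Cells below the Postn limit had 592 and 621 CPM. Among high-Postn cells the members lay toward the upper end, since 46.3% of them at day 10 and 35.1% at day 14 had Postn at 60 or more per 10000 UMIs, against 28.7% and 25.8% of the others.

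Pdzrn4 had 93.7 CPM in members and 10.0 in the others at day 10, and 79.9 and 9.53 at day 14. Megf6 had 107 and 30.7 CPM at day 10, and 117 and 54.8 at day 14. Plekhg4 had 69.0 and 15 CPM at day 10, and 70.8 and 18.6 at day 14. The contrast was of like size for Fam167a and smallest for Kctd12, the gene seen in nearly every member. Fam167a had 50.4 and 8.93 CPM at day 10, and 50.5 and 8.05 at day 14. Kctd12 had 409 and 170.4 CPM at day 10, and 292 and 201 at day 14, and was detected in 98.0% and 96.3% of members. Pdzrn4, which gives the cells their name, was detected in only 51.1% of members at day 10 and 45.1% at day 14, so about as many members lacked a UMI of it as had one.

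Igfbp5, a binding protein for insulin-like growth factors, belongs to the label of these cells but not to the rule. It stood at 329 CPM in members and 334 in the other high-Postn cells at day 10. At day 14 it stood at 488 and 666 CPM, a log2 ratio of -0.45 (-0.50 to -0.39). Igfbp5 was higher in members than in cells below the Postn limit, which had 138 and 293 CPM, but it did not set members apart from the other high-Postn cells. For this gene the data go against the label, and the cells are called here by the rule that chose them.

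Postn and Pdzrn4 are the genes the cells are named for, and the 250 bases before the start of a transcript of each are shown because both genes belong to the rule. The sequences are RefSeq's, on build GRCm38.p6, the plus strand, at chr3:54360857-54361106 for Postn and chr15:92596859-92597108 for Pdzrn4. The first lies just before the Postn gene (chromosome 3, 54361109 to 54391037), and the second inside the Pdzrn4 gene (chromosome 15, 92396881 to 92771819), before an internal start. RefSeq gives another window for each gene, at chr3:54359017-54359266 for Postn and chr15:92396560-92396809 before the start of the Pdzrn4 gene, and neither holds any of the 3 motifs searched. The windows shown are those with a match. Capitals mark matches to TATAAA (the TATA box), ACCACA (the core bound by Runx factors) and CATCTG (an E-box bound by Twist factors), each searched on both strands.
Postn: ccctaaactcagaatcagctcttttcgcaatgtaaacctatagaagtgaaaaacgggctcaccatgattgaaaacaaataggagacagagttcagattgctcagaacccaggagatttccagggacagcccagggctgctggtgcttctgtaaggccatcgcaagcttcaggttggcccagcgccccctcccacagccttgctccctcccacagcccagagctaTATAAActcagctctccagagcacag
Pdzrn4: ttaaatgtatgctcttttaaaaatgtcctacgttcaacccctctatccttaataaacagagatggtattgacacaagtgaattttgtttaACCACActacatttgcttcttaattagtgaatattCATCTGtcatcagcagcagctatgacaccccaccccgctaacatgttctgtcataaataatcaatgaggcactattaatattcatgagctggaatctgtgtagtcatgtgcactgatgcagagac
The TATAAA of Postn begins 26 bases before the start, and the ACCACA of this Pdzrn4 transcript begins 160 bases before it. Windows of the rule and label genes and of the 15 highest genes named below numbered 27, from 19 of 22 genes. ACCACA was in 2 of them, CATCTG in 2 and TATAAA in 3, against 14.0%, 14.4% and 12.4% of all 32851 windows of this length. A match describes letters in a window and not a binding site.

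The number of the 5 genes seen in a cell went up with the Postn level well below the limit of the rule. Postn and the 5 genes make up the rule and were chosen with earlier results of these data known. The shares below are therefore a description of the rule. Cells with 3 or more of them were 5.64% (4.97 to 6.37) of cells with Postn under 10 per 10000 at day 10 and 8.31% (7.62 to 9.03) at day 14. The share was 29.4% (25.2 to 33.9) and 29.3% (26.1 to 32.6) between 20 and 30 per 10000, and 30.6% (26.1 to 35.4) and 31.6% (28.1 to 35.2) between 30 and 45. No step was seen at 30 per 10000. At 60 or more, the share was 51.4% (46.1 to 56.7) at day 10 and 42.3% (37.4 to 47.2) at day 14. Cells of 10000 to 20000 UMIs alone gave 6.59% at the lowest Postn level and 56.0% at the highest at day 10, and 10.4% and 46.2% at day 14.

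**Figure D1:**
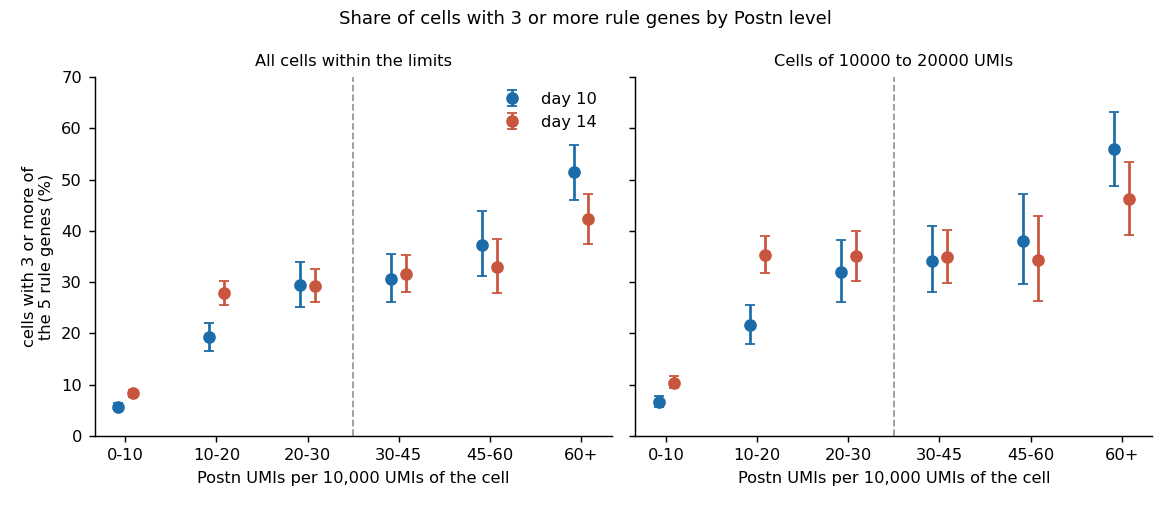
Share of cells with UMIs of 3 or more of the 5 rule genes (y axis, percent) by Postn UMIs per 10000 UMIs of the cell (x axis), in all cells within the limits (left) and in cells of 10000 to 20000 UMIs (right). Points are shares, bars are 95% exact intervals and the dashed line is the Postn limit of 30. Both axes show genes of the rule, so the shares describe the rule. The share in all cells is 5.64% at the lowest Postn level and 51.4% at the highest at day 10, and 8.31% and 42.3% at day 14, with no step at the line. At day 14 the share on the right is level from 10 to 60.

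Cells just inside and just outside the Postn limit had like levels of 1 gene and unlike levels of another. At day 10, the 45 members with Postn of 30 to 35 per 10000 had 576 CPM of Alpl, the tissue-nonspecific alkaline phosphatase of mineralizing cells, and the 61 cells of 25 to 30 with 3 or more rule genes had 498. At day 14, these values were 487 CPM in 89 cells and 507 in 106. Ostn, described below, stood at 0 CPM inside and 27.4 outside at day 10 and at 27.3 and 0 at day 14, on few cells. By the number of rule genes, Alpl stood at 521 CPM in cells with exactly 3 rule genes and 276 in cells with exactly 2 at day 10, and 408 and 230 at day 14.

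Each rule gene was then read in cells sorted by the other 4 rule genes alone. The 5 genes were chosen together, so these levels remain a description of the rule. High-Postn cells of 10000 to 20000 UMIs were used, which keeps depth alike. Pdzrn4 stood at 15.1 CPM where at most 1 of the other 4 was seen and at 86.2 where 3 or 4 were seen at day 10. At day 14 it stood at 10.6 and 75.8 CPM. Cells with more of the other 4 genes thus had more Pdzrn4 on both days. Plekhg4 went from 21.9 to 56.5 CPM at day 10 and from 27.8 to 56.1 at day 14. Fam167a went from 11.9 to 38.2 and from 15.8 to 37.3 CPM. Megf6 went from 45.9 to 90.1 and from 75.2 to 117 CPM. Kctd12 went from 206 to 460.5 CPM at day 10 and from 233 to 302 at day 14.

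Genes outside the rule were compared between members and the other high-Postn cells. A gene counted as tested with at least 20 UMIs in either set at the depth of the members, and as higher or lower when the CPM differed by 2-fold or more. At day 10, 219 of 10899 genes were higher (2.01%) and 304 lower (2.79%). At day 14, 102 of 11255 genes were higher (0.906%) and 164 lower (1.46%). Weighting the other cells to the depth of the members changed the day 14 counts to 138 higher and 140 lower. Of 10707 genes tested on both days, 44 were higher (0.411%) and 65 lower (0.607%) on both. The median log2 ratio of all genes was -0.01 at day 10 and -0.04 at day 14, and across the 6573 genes with 100 UMIs the ratios of both days had a correlation of 0.66, a description over genes that share the choice of cells.

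The highest genes were led by Ostn, a secreted peptide known as osteocrin or musclin that binds the clearance receptor of natriuretic peptides. Ostn stood at 90.9 CPM (83.8 to 98.6) in members and 10.0 (8.08 to 12.3) in the other high-Postn cells at day 10, a log2 ratio of 3.18 (2.87 to 3.51). At day 14 it stood at 25.1 CPM (21.8 to 28.7) and 4.77 (3.62 to 6.16), a log2 ratio of 2.40 (1.97 to 2.84). Ostn was a feature of few members, with UMIs in 69 of 393 at day 10 and 18 of 490 at day 14, where 5 cells held 61.6% of its UMIs. Cells below the Postn limit had 1.71 and 0.652 CPM of Ostn.

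Fat3, an atypical cadherin, stood at 44.7 CPM in members and 7.00 in the others at day 10, a log2 ratio of 2.68 (2.28 to 3.09). The day 14 levels were 36.6 and 7.48 CPM, a log2 ratio of 2.29 (1.95 to 2.64). Tnfrsf19, a receptor of the tumor necrosis factor family also called TROY, stood at 42.2 and 5.38 CPM at day 10, a log2 ratio of 2.97 (2.53 to 3.44). Both genes were spread over more members than Ostn. At day 14 Tnfrsf19 stood at 22.9 and 5.67 CPM, a log2 ratio of 2.01 (1.61 to 2.43).

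Because members were deeper, shares of cells with a UMI were compared after each cell was thinned to 5000 UMIs, which left out 5 of 393 and 10 of 490 members and 32 of 599 and 93 of 910 others. Cells with 2 or more Ptprc UMIs were read as cells expected to lack these genes, which was not shown for each gene. There were 4 of them at day 10, of which 2 reached 5000 UMIs, too few to read, and 119 at day 14, of which 95 did, with a median of 8505 UMIs before thinning against 17878 in members. After thinning, Fat3 was seen in 17.3% of members and 3.70% of the others at day 10, and in 15.2% and 4.28% at day 14, beside 3.16% of the Ptprc cells. Without thinning these shares were 32.8%, 6.34%, 26.3%, 6.26% and 3.36%. The share of the others at day 14 thus lay near that of the Ptprc cells, and the share of members above it. Tnfrsf19 after thinning was seen in 16% of members and 2.82% of the others at day 10, and in 8.12% and 2.69% at day 14, beside none of the 95 Ptprc cells (upper bound 3.81%). Without thinning these were 31.6%, 5.01%, 19.6%, 4.29% and 1.68%. Ostn after thinning was seen in 14.7% and 2.29% at day 10, and in 2.92% (1.60 to 4.85) and 0.857% at day 14, beside 1.05% (0.0266 to 5.73) of the Ptprc cells. The day 14 share of Ostn in members therefore lay within the interval of the Ptprc cells. Without thinning it was 17.6% and 2.84% at day 10, and 3.67%, 1.10% and 0.840% at day 14.

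Alpl had the most UMIs of the 15 highest genes in members. It stood at 659.9 CPM (640.3 to 680.0) in members and 234 (224 to 244) in the other high-Postn cells at day 10, a log2 ratio of 1.49 (1.42 to 1.57). At day 14 it stood at 505 (489 to 520) and 196 (188 to 204), a log2 ratio of 1.36 (1.29 to 1.44). The contrast holds within high-Postn cells and not against the callus at large, since cells below the Postn limit had 618 and 673 CPM of Alpl. After thinning, a UMI of Alpl was seen in 70.9% of members and 35.8% of the others at day 10, and in 63.5% and 35.4% at day 14, beside 28.4% (19.6 to 38.6) of the Ptprc cells. Without thinning these were 80.4%, 50.1%, 75.5%, 50% and 31.9%. The share of the other high-Postn cells at day 14 lay within the interval of the Ptprc cells. Whether the Alpl UMIs of the Ptprc cells were their own was not tested, so their share sets no background level for Alpl.

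Fgfr2, a receptor for fibroblast growth factors that acts in osteoprogenitors, stood at 161 CPM in members and 56.3 in the others at day 10, a log2 ratio of 1.52 (1.37 to 1.67). At day 14 it stood at 108 and 46.4 CPM, a log2 ratio of 1.21 (1.06 to 1.37). After thinning it was seen in 46.6% of members and 20.6% of the others at day 10, and in 34.6% and 16.9% at day 14, beside 7.37% of the Ptprc cells. Without thinning these were 77.6%, 41.7%, 62.2%, 34.2% and 10.9%. Fgfr2 was higher in members than in the others on both days, by level and by share. Cells below the Postn limit had 67.6 and 60.4 CPM of Fgfr2, nearer to the others than to members.

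Among the 15 highest genes were also Efna5, Epha2 and Plxna2. Efna5, an ephrin ligand held at the cell surface, stood at 72.2 CPM in members and 19.5 in the others at day 10 and at 41.3 and 16.4 at day 14. Epha2, a receptor for ephrins of this class, stood at 20.1 and 8.18 CPM at day 10 and at 13.9 and 5.42 at day 14. Plxna2, a plexin that receives semaphorins, stood at 35.3 and 11.5 CPM at day 10 and at 19.2 and 8.38 at day 14. An ephrin ligand and an ephrin receptor were thus both higher in members, Efna5 by log2 ratios of 1.89 and 1.34 and Epha2 by 1.30 and 1.36.

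The others of the 15 highest genes were Sncaip (2.17 and 1.78 on the log2 scale at day 10 and day 14), Arl4d (2.30 and 1.72), Ppfibp2 (1.86 and 1.57), Insc (1.89 and 1.30), Ccdc3 (1.95 and 1.26), Pawr (1.88 and 1.25) and Mgll (1.24 and 1.06). They encode synphilin-1, a small GTPase of the ARF-like family, liprin beta 2, an adaptor for spindle orientation, a secreted protein, a protein that promotes apoptosis and monoacylglycerol lipase. Ccdc3 stood at 58.4 CPM in members and 15.1 in the others at day 10, and at 31.1 and 13 at day 14. Mgll stood at 33.6 and 14.2 CPM at day 10, and at 35 and 16.8 at day 14. With cells thinned before the rule was applied, Arl4d (0.78), Ppfibp2 (0.47) and Mgll (0.64) were higher by less than 2-fold at day 14.

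These genes were also read along the number of rule genes in all high-Postn cells. Tnfrsf19 went from 1.68 CPM in cells with none of the 5 rule genes to 72.5 in cells with all 5 at day 10, and from 2.60 to 56.3 at day 14. Alpl went from 228 to 972 CPM and from 142 to 888. Fgfr2 went from 31.9 to 250.1 CPM and from 45.2 to 238. Most of the climb of these genes came at 3 rule genes and above. They were chosen as higher in members, which have 3 or more rule genes, so a rise there followed from the choice. Fat3 had 9.66 CPM at 2 rule genes and 78.7 at all 5 at day 10, and 7.93 and 102 at day 14. Ostn went from 0.559 to 184 CPM at day 10, while at day 14 it was highest at 3 rule genes, with 33.2 CPM, and 22.0 at all 5. Igfbp5 took another course and was highest at 2 rule genes, with 447 CPM at day 10 and 735 at day 14, and lowest at all 5, with 139 and 228. Cells with none of the rule genes were shallower, with a median of 13662 UMIs at day 10 and 7476 at day 14.

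**Figure D2:**
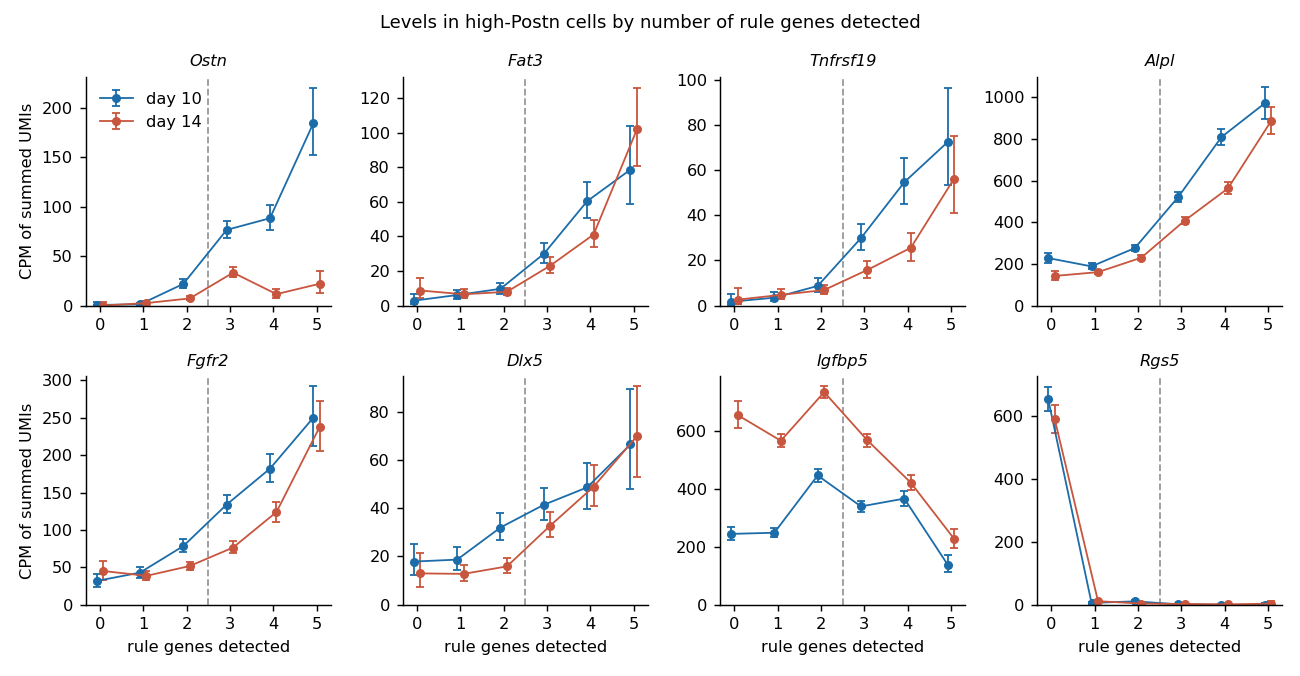
CPM of summed UMIs (y axis, a scale for each gene) in high-Postn cells by the number of the 5 rule genes detected in a cell (x axis), with 95% exact intervals. Members lie right of the dashed line. Alpl, Fgfr2 and Tnfrsf19 climb to the right on both days, Igfbp5 peaks at 2 rule genes, and Rgs5 is near 0 everywhere except in cells with none. Ostn, Fat3, Tnfrsf19, Alpl, Fgfr2 and Rgs5 were chosen by their ratio in members over the other high-Postn cells.

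Among osteogenic transcription factors, 3 of 13 tested genes were higher and 0 lower at day 10, and 4 of 14 higher and 0 lower at day 14, with list medians of 0.56 and 0.40 on the log2 scale. The interquartile range of all tested genes was -0.17 to 0.18 at day 10 and -0.19 to 0.09 at day 14. Of all tested genes, 2.01% were higher and 2.79% lower at day 10, and 0.906% and 1.46% at day 14. Dlx5, a homeobox activator of osteoblast genes, stood at 46.2 CPM in members and 24.3 in the others at day 10 and at 41.6 and 14.5 at day 14. Its log2 ratio was 0.93, short of 2-fold, at day 10 and 1.52 at day 14. Dlx6, its neighbor and paralog, stood at 23.3 and 8.18 CPM at day 10 and at 9.88 and 3.70 at day 14, past 2-fold on both days. Sp7, the osteoblast factor also called osterix, stood at 65.0 and 48.4 CPM at day 10 and at 51.4 and 24.2 at day 14, past 2-fold only at day 14 (0.42 and 1.09). These contrasts of Dlx5 and Sp7 are within high-Postn cells. At the lowest Postn level, cells with fewer than 3 rule genes had 66.1 CPM of Sp7 at day 10 and 62.1 at day 14. Their Dlx5 was 38.5 CPM at day 10, below members, and 49.5 at day 14, above them. Cells with fewer than 3 rule genes between that level and the limit had less of both genes than members. Runx2, which osteoblast formation requires, did not reach 2-fold, at 112 and 79.8 CPM at day 10 and 81.6 and 62.8 at day 14. Tcf7, a nuclear effector of WNT signaling, had log2 ratios of 1.27 and 1.77 on few UMIs, 44 and 47 in members, and these became -0.64 and -0.12 when cells were thinned before the rule was applied.

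Genes of osteoblast maturation did not move as a group, with 5 of 16 higher and 4 lower at day 10 and 2 of 17 higher and 3 lower at day 14, and medians of -0.06 and 0.06. The shares of all tested genes were 2.01% higher and 2.79% lower at day 10, and 0.906% and 1.46% at day 14. Beside Alpl, Omd, a small leucine-rich proteoglycan of bone matrix, stood at 243 and 96.8 CPM at day 10 and at 121 and 63.7 at day 14, log2 ratios of 1.33 and 0.93. Col13a1, a transmembrane collagen, stood at 11.8 and 5.70 CPM at day 10 and at 11.1 and 3.20 at day 14, past 2-fold on both days. Spp1, osteopontin, lay on the other side, at 1102 and 2548 CPM at day 10 and at 2284 and 4023 at day 14, log2 ratios of -1.21 and -0.82. Dmp1, a gene of osteocytes, had 3 UMIs in members and 48 in the others at day 10, and 8 and 88 at day 14, log2 ratios of -3.49 (-5.81 to -1.85) and -2.92 (-4.18 to -1.88). Ank, a transporter that exports pyrophosphate, had log2 ratios of -1.18 and -0.77. Ibsp, bone sialoprotein, did not reach 2-fold and had opposite signs, at 4108 and 6284 CPM at day 10 and 4518 and 2800.2 at day 14.

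Bglap and Bglap2, near-identical genes for osteocalcin whose reads the counting could split between them, rested on few cells. Bglap stood at 204 CPM in members and 43.8 in the others at day 10, and at 68.3 and 186 at day 14, log2 ratios of 2.22 and -1.44. At day 14 a single cell among the others held 1500 of their 2259 UMIs of Bglap. Without the 5 highest cells of each set the day 14 ratio of Bglap was 1.40. Bglap2 had a log2 ratio of 2.52 at day 10 and 0.06 at day 14. At day 10, 90 of 393 members had a UMI of Bglap.

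Of the 10 lowest genes, Rgs5, Col4a1 and Col4a2 led. Rgs5, a regulator of G protein signaling that marks pericytes, stood at 1.08 CPM in members and 132 in the others at day 10, and at 2.14 and 62.0 at day 14, log2 ratios of -6.94 and -4.86. Its UMIs among the others came from 34 cells at day 10 and 44 at day 14, and 5 cells held 81.5% and 86.5% of them. In high-Postn cells with none of the rule genes Rgs5 stood at 652 and 589 CPM, and with any number of rule genes at 11.4 CPM or less. Col4a1, a chain of the type IV collagen of basement membranes, stood at 11.7 and 156 CPM at day 10 and at 4.52 and 63.5 at day 14. Col4a2, its partner chain, had log2 ratios of -2.94 and -2.87, and Col18a1, also of basement membranes, -1.76 and -1.53. Of the pericyte list, 7 of 8 tested genes were lower at day 10 and 4 of 7 at day 14. Over all tested genes 2.79% and 1.46% were lower. Against other cells with 1 or 2 rule genes, 2 of 5 and 3 of 7 pericyte genes were lower. The pericyte list summed to 146 CPM in members and 587 in the others at day 10, and to 205 and 387 at day 14.

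The remaining lowest genes were Folr2 (-3.26 and -1.75 on the log2 scale), a folate receptor of macrophages, F13a1 (-3.04 and -1.63), the A chain of coagulation factor XIII, Mustn1 (-2.69 and -1.32), a small nuclear protein of muscle and skeleton, Gzmd (-2.54 and -1.16), a granzyme, Chst1 (-1.86 and -1.57), a sulfotransferase, and Col10a1 (-1.17 and -1.29), the collagen of hypertrophic cartilage. Col10a1 and Gzmd depended on few cells. At day 10, 5 cells held 50.6% of the Col10a1 UMIs and 69.2% of the Gzmd UMIs of the others, and without the 5 highest cells of each set the day 10 ratio of Col10a1 was -0.25. In cells of 10000 to 20000 UMIs Gzmd was at -0.01 at day 14.

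Cartilage genes were lower in members than in the other high-Postn cells at day 10 and mostly short of 2-fold at day 14. Of the chondrocyte list, 11 of 19 tested genes were lower at day 10 and 2 of 18 at day 14, none was higher, and the medians were -1.23 and -0.59. Over all tested genes, 2.79% and 1.46% were lower on these days. Col2a1, the main collagen of cartilage, stood at 908 CPM in members and 2804 in the others at day 10 and at 630.4 and 1189.9 at day 14, log2 ratios of -1.63 and -0.92. Hapln1, which links hyaluronan to proteoglycans, stood at 83.3 and 271 CPM at day 10 and at 57.9 and 98.9 at day 14. Acan, the large proteoglycan of cartilage, was nearly level at 1205 and 1404 CPM at day 10 and 1189 and 1275 at day 14. Sox9, the master factor of cartilage, was at 214 and 362 CPM and at 175 and 222, short of 2-fold on both days. Against other cells with 1 or 2 rule genes, 8 of 19 and 1 of 18 of the chondrocyte genes were lower.

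**Figure D3:**
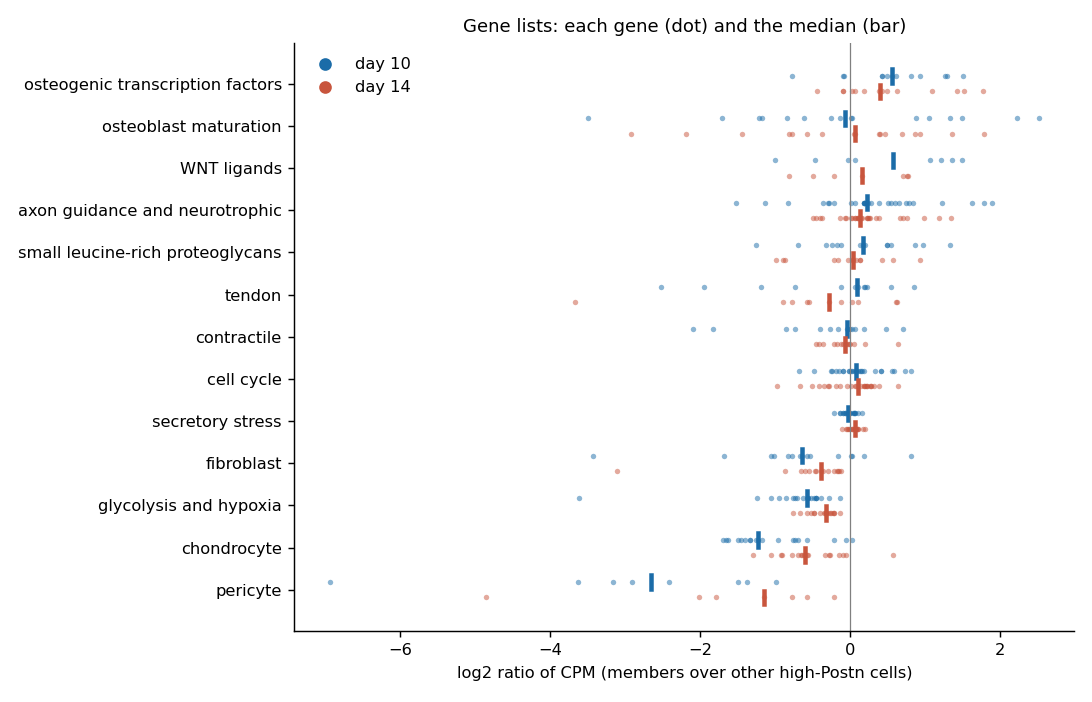
Log2 ratio of CPM in members over the other high-Postn cells (x axis) for the tested genes of 13 gene lists (rows), 1 dot for each gene and a bar at the median of the list, by day. Osteogenic transcription factors have medians of 0.56 and 0.40, chondrocyte genes -1.23 and -0.59 and pericyte genes -2.66 and -1.15, while cell cycle and secretory stress genes center near 0.

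Among WNT ligands, 4 of 8 tested were higher at day 10, beside 2.01% of all genes, and 0 of 7 reached 2-fold at day 14. The 4 were Wnt16 (42.4 CPM in members and 15.1 in the others), Wnt10b (16 and 6.24), Wnt5b (40.2 and 19.2) and Wnt7b (3.99 and 1.72). Wnt7b rested on 26 UMIs in members, of which 5 cells held 53.8%, and 16 in the others. The medians of the list were 0.57 and 0.16. Wnt16, a ligand known to act on cortical bone, was at 20.6 and 18.5 CPM at day 14. Rspo3, a secreted enhancer of WNT signaling, stood at 26.9 and 10.1 CPM at day 10 and at 19.9 and 10.9 at day 14, log2 ratios of 1.41 and 0.86. None of 9 tested WNT antagonists was higher on either day. At day 10, 3 were lower, among them Dkk2 (-1.81) and Frzb (-1.12), beside 2.79% of all genes. The difference between the days was not tested.

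Among FGF and PDGF genes, Fgfr2 was joined by Pdgfd, a PDGF ligand, at 16.9 and 5.70 CPM at day 10 and 10.0 and 4.52 at day 14. Fgfr3, a sister receptor, had log2 ratios of 0.35 and 1.11. Etv4, a transcription factor induced by FGF signaling, was lower, at -2.01 and -1.27, and Spry1, Spry2 and Dusp6, feedback inhibitors of the same signaling, lay between -0.84 and -0.60 on both days, short of 2-fold. Over the list, 2 of 19 were higher and 3 lower at day 10, and 3 of 17 higher and 1 lower at day 14, with medians of -0.44 and -0.36. Among all tested genes, 2.01% were higher and 2.79% lower at day 10, and 0.906% and 1.46% at day 14.

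Of the axon guidance and neurotrophic list, 4 of 28 genes were higher and 2 lower at day 10, and 2 of 30 higher and 0 lower at day 14, with medians of 0.22 and 0.13. All tested genes had 2.01% higher and 2.79% lower at day 10, and 0.906% and 1.46% at day 14. Beside Efna5 and Plxna2, Epha4, an ephrin receptor, stood at 48.2 and 20.7 CPM at day 10 and 27.6 and 14.0 at day 14, and Robo2, a Slit receptor, had log2 ratios of 1.78 and 0.67. Of the adipogenic reticular list, 2 of 6 tested genes were higher at day 10 and 2 of 5 at day 14, none was lower, the medians were 0.40 and 0.70, and the list summed to 166 CPM in members and 77.1 in the others at day 10 and to 126 and 89.2 at day 14. Lpl, lipoprotein lipase, of this list stood at 113 and 34.0 CPM at day 10 and 51.4 and 24.9 at day 14, past 2-fold on both days, while Adipoq and Plin1, defining markers of fat-forming cells, had at most 1 UMI in members on either day. Id2, an inhibitor of basic helix-loop-helix factors, stood at 132 and 70.3 CPM at day 10 and 98.9 and 39.4 at day 14.

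Matrix genes were mixed. Col1a1, the main collagen of bone, stood at 23436 CPM in members and 19294 in the others at day 10 and at 22493 and 19732 at day 14. Of 11 tested fibrillar collagens, 3 were lower by 2-fold at day 10, Col2a1 (-1.63), Col5a3 (-1.57) and Col11a2 (-1.34), beside 2.79% of all genes, none was lower at day 14 and none was higher on either day, with medians of 0.11 and 0.11. Lum, lumican, had log2 ratios of 0.97 and 0.57, and Aspn, asporin, 0.86 and 0.08. Of 15 tested fibroblast genes, 4 were lower at day 10 and 1 of 15 at day 14, with medians of -0.64 and -0.39. Over all tested genes, 2.79% and 1.46% were lower. Contractile genes centered near 0 (-0.04 and -0.07), with Acta2, smooth muscle actin, at 911 and 1198 CPM at day 10 and 770.1 and 837 at day 14. The tendon factor Scx was at 262 and 229.9 CPM at day 10 and 248 and 271 at day 14.

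All 20 tested glycolysis and hypoxia genes at day 10 and all 19 at day 14 had ratios below 0, though 3 and 0 reached 2-fold. Their medians were -0.57 and -0.32, and 2.79% and 1.46% of all tested genes were lower by 2-fold. Gapdh, a glycolytic enzyme, stood at 994 and 1466 CPM at day 10 and at 1057 and 1297 at day 14. Against other cells with 1 or 2 rule genes the medians were -0.42 and -0.29. None of 27 tested cell cycle genes at day 10 and 26 at day 14 reached 2-fold, and the same held for the 20 secretory stress genes.

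Markers of cell types that the sort removes, and of muscle and Schwann cells, were read in members. The 9 endothelial markers summed to 1.54 CPM in members and 6.35 in the others at day 10 and to 4.52 and 4.11 at day 14, with 5 of 9 at 0 in members on each day, among them Cdh5 and Tie1. The 13 hematopoietic markers summed to 14.1 and 21.7 CPM at day 10 and to 41.4 and 119 at day 14, with 2 of 13 at 0 on each day. The 10 muscle markers summed to 10.1 CPM in members and 37.7 in the others at day 10 and to 13.7 and 20.9 at day 14, with 6 and 5 of 10 at 0 in members, among them Myod1, Myf5 and Pax7. The 7 Schwann cell markers summed to 28.1 and 35.7 CPM at day 10 and to 26.1 and 17.8 at day 14, most of it S100b, which cartilage also expresses, with 3 and 2 of 7 at 0 in members, among them Sox10.

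Members were set beside other sets of callus cells. The contractile set, high-Postn cells outside the members with Acta2 at 10 or more per 10000 and a UMI of Scx, had 162 cells at day 10 and 181 at day 14. The Igf1 set, with Igf1 at 10 or more per 10000 and a UMI of Abi3bp, had 73 and 291. The Bglap set, with Bglap at 10 or more per 10000, lay below the Postn limit and had 62 and 179 cells. The first of these rules was also met by 107 members on each day, and the Igf1 rule by 71 and 149 members, so the sets describe overlapping features.

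Alpl stood at 659.9 CPM in members, 118 in the contractile set, 222 in the Igf1 set and 1014 in the Bglap set at day 10. At day 14 Alpl stood at 505, 99.6, 138 and 988 CPM. Ibsp followed the same order for members and the Bglap set at a wider range, with 4108 CPM in members, 997 in the contractile set, 602 in the Igf1 set and 20048 in the Bglap set at day 10. In Alpl, Ibsp, Sp7 and Dlx5, members lay above the contractile and Igf1 sets and below the Bglap set on both days. For Ibsp this order depends on the sets chosen, since all other high-Postn cells together had 6284 CPM at day 10, above members. Sp7 stood at 65.0 CPM in members, 18.1 in the contractile set, 12.4 in the Igf1 set and 161 in the Bglap set at day 10, and at 51.4, 13.4, 6.2 and 142 at day 14. Fgfr2 and Tnfrsf19 did not follow this order. Alpl, Fgfr2, Tnfrsf19 and Ostn were chosen as higher in members than in the other high-Postn cells. The contractile and Igf1 sets are part of those cells, so for these genes members lying above them followed from the choice. Fgfr2 stood at 161 CPM in members, 30.8 in the contractile set, 80.8 in the Igf1 set and 71.3 in the Bglap set at day 10, and at 108, 27.0, 37.4 and 57.2 at day 14. Ostn stood at 90.9 CPM in members and 33.1 in the Bglap set at day 10, and at 25.1 and 2.99 at day 14. Postn itself was at 423 CPM in the Bglap set at day 10 and 266 at day 14.

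**Figure D4:**
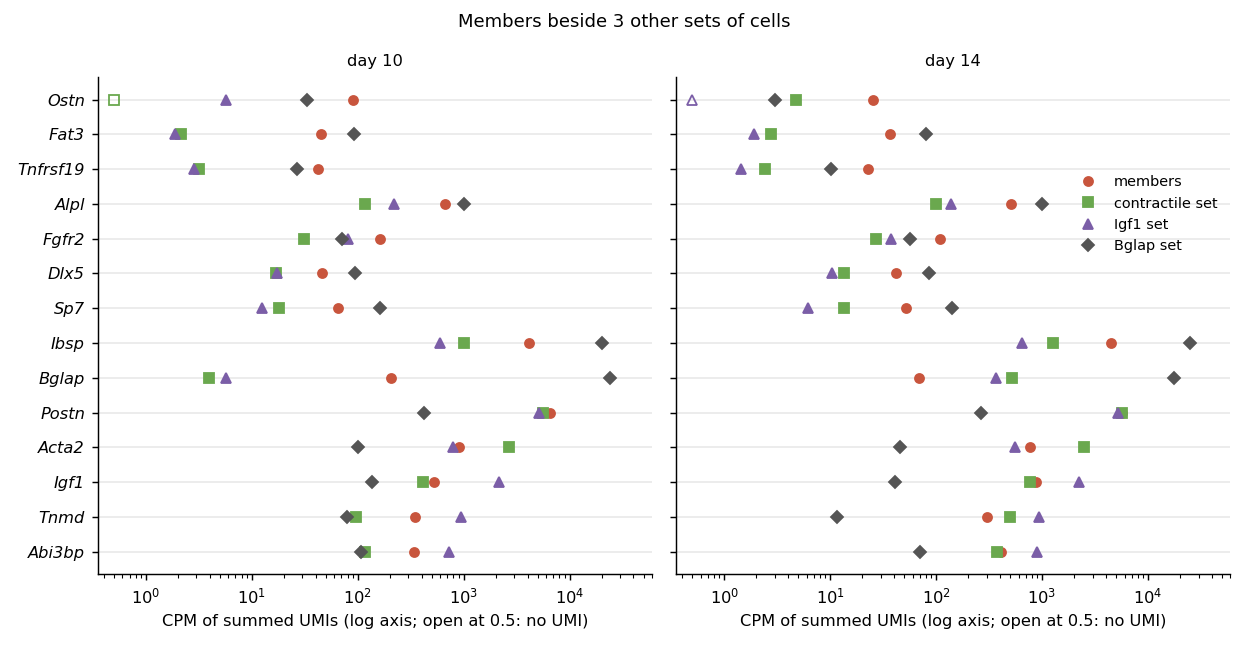
CPM of summed UMIs (x axis, log scale) of 14 genes in members, the contractile set, the Igf1 set and the Bglap set at day 10 (left) and day 14 (right). Open symbols at 0.5 stand for sets without a UMI. Members lie above the contractile and Igf1 sets and below the Bglap set in Alpl, Dlx5, Sp7 and Ibsp, and are highest in Fgfr2, Ostn and Tnfrsf19. Ostn, Fat3, Tnfrsf19, Alpl and Fgfr2 were chosen by their ratio in members over the other high-Postn cells. The contractile and Igf1 sets are part of those cells, so higher levels in members than in these sets followed from the choice.

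Cells with 3 or more of the rule genes that fell below the Postn limit, 533 at day 10 and 1137 at day 14, shared part of this profile. Alpl differed between members and these cells by 0.10 and -0.25 on the log2 scale, Fgfr2 by 0.08 and -0.24, and Dlx5 by 0.15 and 0.28. Ostn stood apart, at 90.9 CPM in members and 11.5 in these cells at day 10 and at 25.1 and 2.30 at day 14. Ccdc3 was also higher in members, by 1.95 and 1.29, and Acta2 by 1.53 and 1.47. Col2a1 was much lower in members, at 908 and 9104 CPM at day 10 and 630.4 and 3769 at day 14. Alpl and Fgfr2 thus had like levels in members and in these cells, while Ostn and Acta2 did not. These cells reached down to the lowest Postn levels, so this is no contrast at the limit itself. At the lowest Postn level, Alpl and Dlx5 were no higher with 3 or more rule genes. With fewer than 3, Alpl stood there at 662 CPM at day 10 and 755 at day 14, and Dlx5 at 38.5 and 49.5. With 3 or more, Alpl stood at 638 and 666 CPM and Dlx5 at 34.9 and 32.5. Fgfr2 was higher there with 3 or more, at 155 and 128 CPM against 53.0 and 43.6. Between that level and the limit, Alpl and Dlx5 were also higher with 3 or more. With 3 or more rule genes at day 10, Ostn climbed from 0.466 CPM at the lowest Postn level to 122 at the highest. It stood at 33.7 CPM just below the limit and 48.6 just above. At day 14 it was uneven, at 0 CPM just below the limit, 18.2 just above and 6.27 at the next level. Acta2 was not read by Postn level.

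Between day 10 and day 14, 199 of 11289 tested genes were higher by 2-fold or more in day 14 members (1.76%) and 361 lower (3.20%), with a median of -0.03. The highest were S100a9, a calprotectin chain of neutrophils, from 0.768 to 12.5 CPM, Ccn3, a matricellular protein, from 5.84 to 26.6, Pbld1 from 2.92 to 12.1, Mmp9, a gelatinase, from 4.76 to 17.7, and Stc2, a stanniocalcin, from 3.38 to 12.1. S100a9 was higher also in the other high-Postn cells, from 0.215 to 43.8 CPM, and the hematopoietic markers went from 14.1 to 41.4 CPM in members, whose part in this was not tested. Mmp9 rested on a single cell with 107 of 149 UMIs at day 14, and without the 5 highest cells its log2 ratio was 0.39.

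The lowest at day 14 were Cxcl2, a chemokine, from 19.8 to 0.714 CPM, Ifi27l2a, an interferon-induced gene, from 171 to 15.1, Eln, elastin, from 50.1 to 7.62, Ptprz1, a receptor phosphatase that binds pleiotrophin, from 33.3 to 5.95, and Kcnj2, a potassium channel, from 12.3 to 2.5. Cxcl2 and Ifi27l2a were lower at day 14 in the other high-Postn cells as well, by log2 ratios of -3.41 and -2.31. At day 10, 5 members held 77.0% of the Eln UMIs, and without the 5 highest cells the log2 ratio of Eln was -1.24 in place of -2.72. Of the 15 highest genes, all but Mgll (0.06) had a ratio below 0, led by Ostn (-1.86) and Insc (-1.22), followed by Ppfibp2 (26.9 CPM at day 10 and 13.5 at day 14) and Sncaip (-0.96), and the others lay between Ccdc3 (-0.91) and Fat3 (-0.29), with Alpl at -0.39. The 5 rule genes lay between Kctd12 (-0.48) and Megf6 (0.13). Spp1 was higher, at 1.05.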

How the data were processed

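The deposited files hold whole-number counts of UMIs per gene and cell, which the authors made from 10x Genomics libraries with Cell Ranger on mm10. The submitters' notes name version 3.0, the file headers name 3.1.0 and the methods of the paper name a later version than both. The labels and the methods also name different kit versions. The deposited cells included many outside the limits used here. Library totals were 113127788 UMIs at day 7, 144103160 at day 10 and 195661880 at day 14.

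Counts were summed over cells and divided by the set's total (CPM). Ratios carry 95% exact binomial intervals and shares exact Clopper-Pearson intervals, and a count of 0 was set to 3 in ratios. There were no replicates, so no test was made. The members, the gene lists and the comparison sets were chosen with earlier results of these data known. Named genes were the rule and label genes, the 15 highest and 10 lowest genes ranked by the smaller ratio of both days with at least 100 UMIs, the opening and most different genes of each list, and the 5 highest and 5 lowest of day 14 over day 10. Ibsp, Id2, Acta2, Gapdh and other genes printed for context were picked with their values in view. Scrublet (scanpy 1.11.5) marked 0.121% of cells at day 10 and 0.0620% at day 14, too few to have worked, so doublets were limited only by the ceiling of 5000 genes. Gene positions came from GENCODE M21. Python 3.11.15, numpy 2.4.6, scipy 1.17.1, pandas 2.3.3 and matplotlib 3.10.9 were used, and the ratio step was tested on simulated data.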

Additional observations from a re-analysis of the deposited data

Results flagged for a closer look

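Among the genes of the gene lists, 3 had a ratio of members over the other high-Postn cells past 2-fold on both days in opposite directions. Genes outside the lists were not searched for this, and the difference between the days was not tested. Bglap, osteocalcin, had log2 ratios of 2.22 at day 10 and -1.44 at day 14, and a single cell among the others held 1500 of their 2259 UMIs at day 14. Egfl6, a secreted protein with EGF-like repeats, had -1.56 and 1.53, and 5 cells held 83.3% of its 48 UMIs in day 14 members. Eln, elastin, had 1.02 and -1.23, and 5 cells held 77.0% of its 326 UMIs in day 10 members.

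The day 7 library, which the rule leaves out, held 7 cells that met the rule, 21.2% (8.98 to 38.9) of 33 high-Postn cells among the 447 cells without Ptprc of 7017 within the other limits.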

How the results depend on the processing

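The member share depends on the rule. It was 64.6% at day 10 and 66.6% at day 14 with at least 2 rule genes, 15.8% and 13.9% with at least 4, 36.5% at day 10 with Postn at 20 per 10000, 47.7% and 39.1% with Postn at 50, and 12.9% and 12% in cells thinned to 5000 UMIs, where fewer genes are seen in a cell. No upper gene limit, Ptprc UMIs allowed or cells marked by Scrublet left out moved it within its interval. Counts of genes are given as higher and lower at day 10, higher and lower at day 14, and higher and lower on both days. They were 219, 304, 102, 164, 44 and 65 as reported. They were 613, 743, 332, 589, 145 and 235 at a fold of 1.5, 67, 125, 31, 51, 15 and 22 at a fold of 3, 565, 671, 407, 504, 103 and 166 with a minimum of 5 UMIs, and 76, 93, 29, 28, 18 and 16 with a minimum of 100. Thinned cells gave 100, 123, 43, 51, 18 and 18, and all other cells within the limits as comparison gave 782, 641, 437, 694, 330 and 463. At least 2 rule genes gave 200 higher and 334 lower at day 14 and 131 lower on both days. At least 4 gave 116 higher at day 10. Postn at 20 gave 113 lower on both days, and comparison with other cells of 1 or 2 rule genes, chosen after seeing the data, gave 36. From day 10 to day 14, 188 genes were lower in thinned members. Of the 44 genes higher on both days, 41 kept that direction on both days in thinned cells and 35 against all other cells, and of the 65 lower, 44 and 53. Signs turned for Bglap at day 14 (0.34 thinned, 1.40 without the 5 highest cells, 0.84 in cells of 10000 to 20000 UMIs), Eln at day 10 (-0.07 without the 5 highest cells), Egfl6 at day 14 (-0.76 thinned, -0.05 without the 5 highest cells) and Tcf7 (-0.64 at day 10 and -0.12 at day 14, thinned). For Tcf7 the cause was not tested. Leaving out the 5 highest cells and the depth window were added after seeing the data. No paired analysis was possible because each day is a single library. With 1 library a day, the spread between animals is unknown, and a gene had to reach 20 UMIs in either set to be counted.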
